A study of Danio rerio with 20 samples.

Results

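The dlx, lhx, msx, twist and prrx genes encode transcription factors that pattern the growing appendages of vertebrates, and their transcript levels were followed through regeneration of the zebrafish caudal fin. Members were the genes whose symbol, in the study's lists of genes changed in sorted cells or lying near regions of changed chromatin accessibility, starts with one of these 5 family names, and 16 such genes are described among the 32105 counted. There were 6 dlx genes (dlx1a, dlx2a, dlx2b, dlx3b, dlx5a and dlx6a), 4 msx genes (msx1a, msx1b, msx2a and msx3), 3 twist genes (twist1a, twist1b and twist3), and lhx2b and prrx1b. The remaining one, twistnb, matches by name only: the reference annotation gives its ID as POLR1F, a subunit of RNA polymerase I, and it is described apart from the other 15. Of the 16 genes, 14 were in the study's list of genes changed between 4 and 0 days post amputation (dpa) in sorted cells, and 2 (dlx2b and msx1a) were named only for a nearby region. The choice of members therefore used the sorted libraries, whose values over time and between populations are given here as a description. Counts of members that passed the test of a 2-fold change there stand beside the share of all genes, and nothing is read from them.

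Dlx, Msx and Prrx proteins bind DNA through a homeodomain, and Lhx proteins add a pair of LIM domains to it, through which they bind cofactors of the Ldb family. Twist proteins are basic helix-loop-helix factors that pair with E proteins and mark mesenchyme. In mouse and chick limb buds, Dlx and Msx genes are expressed in the apical ectoderm and the mesenchyme under it, Prrx1 in the mesenchyme, and Lhx2 and Lhx9 in the distal mesenchyme. Msx genes are known as markers of the fin blastema, the mass of proliferating cells that forms over the stump after amputation.

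RNA was sequenced in 2 experiments of 20 libraries in all, with 2 libraries in each of 10 groups. The first used unsorted fins of fosl1a KO fish, CRISPR/Cas9 mutants of the gene for the AP-1 subunit Fra1, and of fosl1a WT littermates, each at 0, 1 and 4 dpa (12 libraries). The second used adult Tg(sp7:EGFP) fish, in which sp7 regulatory sequence drives EGFP in osteoblasts. It compared FACS-sorted sp7+ (EGFP-positive) and sp7- (EGFP-negative) fin cells at 4 and 0 dpa (8 libraries, from fins pooled for each replicate). At 0 dpa the tissue was uninjured fin, and at the later times it is labelled blastema, so tissue changed along with time. In sorted cells the dissociation differed between 4 and 0 dpa too. The labels do not say whether the libraries of unsorted fins came from separate fish, and p-values measure only the spread between libraries, which may be technical.

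Library totals ranged from 10194983 to 31507208 counts in unsorted fins and from 28906309 to 50312755 counts in sorted cells, and all 16 genes passed the filter on low counts in both experiments. Levels are given as CPM, the count relative to the scaled library total, and are compared within a gene, not between genes. The level of fosl1a itself was 11.1 and 9.20 CPM at 0 dpa, 34.2 and 46.1 CPM at 1 dpa and 2.24 and 2.98 CPM at 4 dpa in KO fins. The level in WT fins was 2.71 and 3.96 CPM at 0 dpa, 119 and 140.2 CPM at 1 dpa and 2.31 and 3.40 CPM at 4 dpa. The transcript was thus lower in KO than in WT fins at 1 dpa but higher in KO at 0 dpa, with no overlap between genotypes at either time. A mutation in the coding sequence need not remove the transcript. In sorted cells the mean fosl1a level was 1372 CPM in sp7+ and 1446 CPM in sp7- cells at 0 dpa. At 4 dpa it was 312.1 and 352.2 CPM in the same order. The mean in unsorted WT fins at 0 dpa was 3.335 CPM, and the part of cell dissociation in this was not tested. The 2 libraries of KO fins at 0 dpa stood apart from each other: the summed level of 10 osteoblast markers was 792 CPM in replicate 1, also the shallowest library, and 3110 CPM in replicate 2, and results that rest on them are given without replicate 1. Those of sp7+ cells at 0 dpa stood apart too, with an osteoblast sum of 2060 to 6350 CPM. The marker sp7 stood at 74.1 and 112.8 CPM in sp7+ and 1.38 and 1.17 CPM in sp7- cells at 4 dpa, and at 30.0 and 31.9 CPM in sp7+ and 0.252 and 0.145 CPM in sp7- cells at 0 dpa. At 0 dpa the summed level of 10 epidermal markers was 86400 to 101000 CPM in sp7+ and 118000 to 128000 CPM in sp7- cells, and the sp7+ libraries therefore held epidermal transcripts too. Single markers went either way: krt4, a keratin of the surface epidermis, had 35992 and 29420 CPM in sp7+ and 1148.5 and 1297 CPM in sp7- cells, whereas krt5, a basal keratin, had 18615 and 18341 CPM in sp7+ and 66837 and 69782 CPM in sp7- cells.

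The time course of WT fins asked how the family genes followed regeneration. Most family members stood lower at 1 dpa than in the uninjured fin and higher at 4 dpa than at either earlier time, while lhx2b and prrx1b did not stand lower at 1 dpa. In the comparison of 1 against 0 dpa, 7 of the 16 genes fell by more than 2-fold (dlx1a, dlx2a, dlx2b, dlx5a, dlx6a, msx2a and msx3; 8.95% of all genes tested fell). None rose in edgeR or DESeq2 (6.32% of all genes rose in edgeR), and lhx2b alone had an unadjusted p under 0.05 in that direction. In that of 4 against 0 dpa, 9 rose (dlx2b, dlx5a, lhx2b, msx1a, msx1b, msx2a, msx3, prrx1b and twist3) against 6.69% of all genes. In edgeR's test no member fell at 4 dpa (4.78% of all genes did), none had an unadjusted p under 0.05 in that direction, and DESeq2 called none lower. In that of 4 against 1 dpa, 12 rose, against 5.84% of all genes: all but dlx3b, twist1a, twist1b and twistnb. Over the 15 family members the median log2 fold change was -1.42 at 1 against 0 dpa, 1.71 at 4 against 0 dpa and 3.10 at 4 against 1 dpa, where the medians over all genes tested were -0.06, -0.01 and 0.03. All 15 had a positive log2 fold change at 4 against 0 dpa and at 4 against 1 dpa. The 3 comparisons share libraries, so they are not separate tests. Most members were chosen for a change from 0 to 4 dpa in sorted fin cells. The shares and medians of all genes are therefore no even baseline for their gains at 4 dpa, and nothing is read from the excess.

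In these unsorted fins a change in the share of a cell type and a change in RNA per cell cannot be told apart. The summed level of 10 osteoblast markers in WT fins was 2750 to 3060 CPM at 0 dpa, 155 to 203 CPM at 1 dpa and 16900 to 24100 CPM at 4 dpa, and that of 10 epidermal markers was 121000 to 146000, 113000 to 121000 and 54600 to 61200 CPM. In KO fins the osteoblast sums were 792 to 3110, 206 to 214 and 16800 to 22800 CPM and the epidermal sums 99900 to 187000, 110000 to 131000 and 74600 to 88800 CPM, with no marker of either list at 0. The osteoblast sum thus had the same order of times as most of the family genes. At 0 and 4 dpa most of it was 1 gene, col10a1a. In WT fins col10a1a had 2495 and 2699 CPM at 0 dpa and 29.6 and 43.3 CPM at 1 dpa. At 4 dpa it had 23337 and 16209 CPM. Of the 10 markers, 7 fell and none rose at 1 against 0 dpa in WT. At 4 against 0 dpa 5 rose and 1 fell. The part of these markers in the result was not tested.

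**Figure D1:**
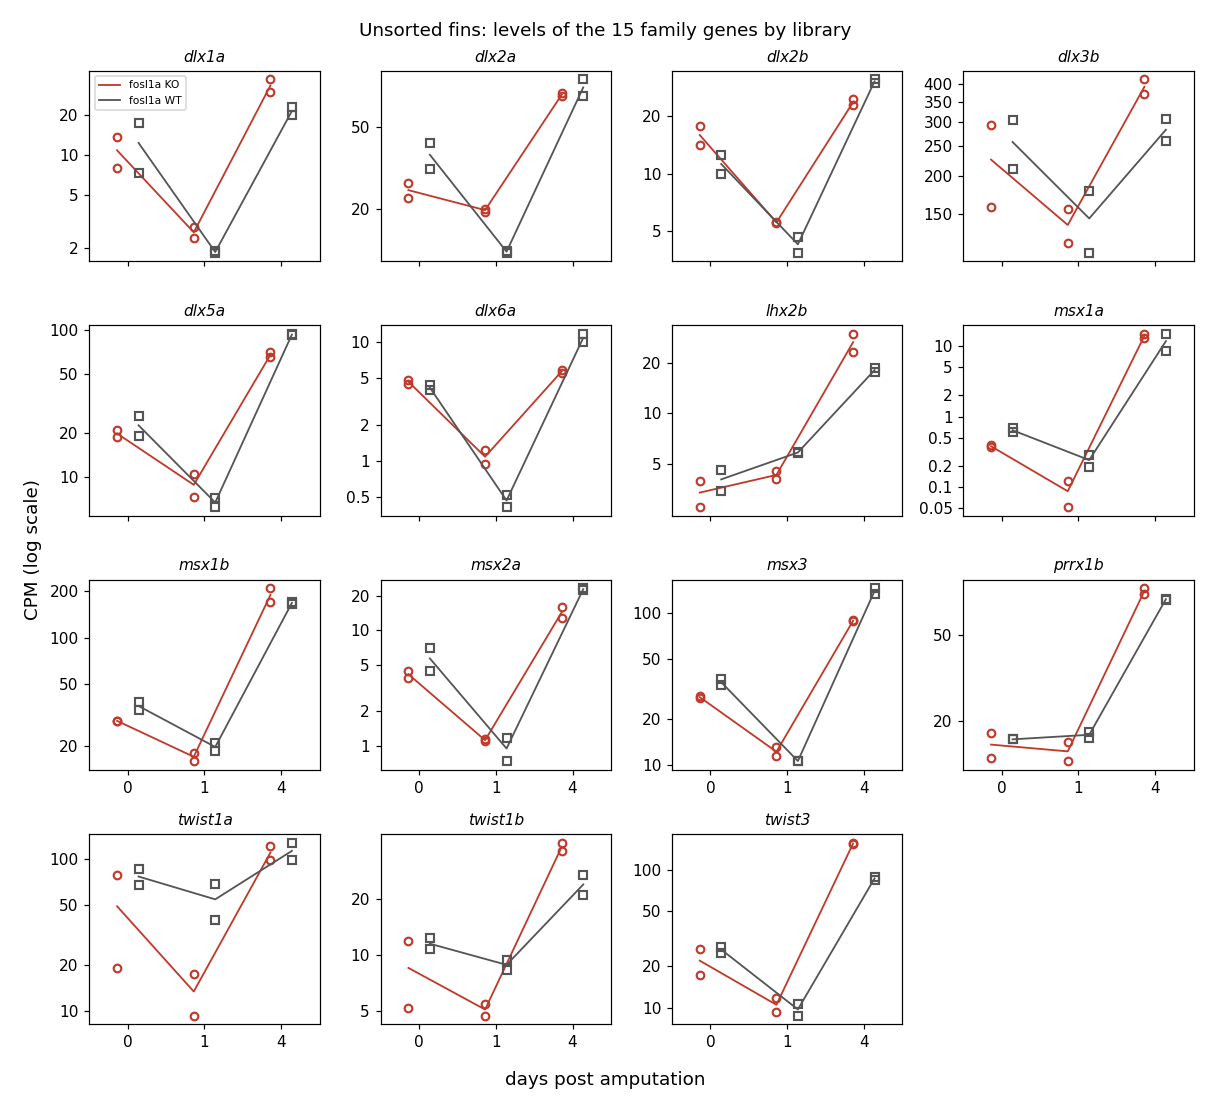
Levels of the 15 family genes in unsorted fins, in CPM on a log scale, at 0, 1 and 4 dpa. Points are single libraries (red circles, KO; grey squares, WT) and lines join the group means; most genes are lowest at 1 dpa and highest at 4 dpa in both genotypes, whereas lhx2b and prrx1b in WT have their lowest mean at 0 dpa.

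Among the dlx genes, dlx5a and dlx6a are neighbours in the reference annotation (GRCz12tu), as are dlx1a and dlx2a, and in mouse the Dlx5 and Dlx6 pair acts in the limb's apical ectoderm and in bone. The level of dlx5a was 18.7 and 20.9 CPM at 0 dpa, 10.4 and 7.28 CPM at 1 dpa and 70.4 and 65.5 CPM at 4 dpa in KO fins. WT fins had 18.9 and 26.1 CPM at 0 dpa, 7.17 and 6.26 CPM at 1 dpa and 94.3 and 92.0 CPM at 4 dpa. In both genotypes its 1 dpa libraries lay under both 0 dpa libraries and its 4 dpa libraries lay over all others. In WT it fell at 1 dpa (log2 fold change -1.74 ± 0.22, adjusted p = 0.00594; ± SE here and below) and rose at 4 against 0 dpa (2.05 ± 0.21, adjusted p = 0.0011). The level of dlx6a was 4.81 and 4.42 CPM at 0 dpa, 1.23 and 0.942 CPM at 1 dpa and 5.82 and 5.47 CPM at 4 dpa in KO fins. Against this, WT fins had 4.31 and 3.92 CPM at 0 dpa, 0.521 and 0.412 CPM at 1 dpa and 9.89 and 11.6 CPM at 4 dpa. Its 1 dpa libraries were again the lowest, and its WT libraries at 4 dpa were the only ones well over the 0 dpa level. It fell in WT at 1 dpa (log2 fold change -3.12 ± 0.25, adjusted p = 4.37e-05) and rose at 4 against 1 dpa (4.50 ± 0.25, adjusted p = 2.74e-06), while its 4 against 0 dpa difference did not pass (1.38 ± 0.20, adjusted p = 0.0736).

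The other pair, dlx1a and dlx2a, stood lower at 1 dpa than at 0 dpa in WT fins and higher at 4 dpa than at 0 dpa. The level of dlx1a was 7.96 and 13.8 CPM at 0 dpa, 2.39 and 2.88 CPM at 1 dpa and 36.9 and 29.6 CPM at 4 dpa in KO fins. In WT fins it was 7.35 and 17.3 CPM at 0 dpa, 1.86 and 1.89 CPM at 1 dpa and 19.9 and 22.9 CPM at 4 dpa. Its 2 libraries of WT fins at 1 dpa were the lowest of all 12. The level of dlx2a was 22.5 and 26.7 CPM at 0 dpa, 20.002 and 19.3 CPM at 1 dpa and 70.8 and 73.4 CPM at 4 dpa in KO fins. The level in WT fins was 31.2 and 42.0 CPM at 0 dpa, 12.4 and 12.2 CPM at 1 dpa and 70.8 and 85.5 CPM at 4 dpa. In WT both fell at 1 dpa (log2 fold change -2.71 ± 0.39, adjusted p = 0.00255 for dlx1a and -1.57 ± 0.19, adjusted p = 0.011 for dlx2a), and both rose at 4 against 1 dpa (3.51 ± 0.40 and 2.67 ± 0.20). Neither passed the test of a 2-fold change at 4 against 0 dpa (0.80 ± 0.35 and 1.09 ± 0.18). The level of the related dlx2b was 14.1 and 17.8 CPM at 0 dpa, 5.52 and 5.55 CPM at 1 dpa and 24.5 and 22.9 CPM at 4 dpa in KO fins. WT fins had 9.96 and 12.5 CPM at 0 dpa, 3.84 and 4.65 CPM at 1 dpa and 31.2 and 29.8 CPM at 4 dpa. In WT it fell at 1 dpa (-1.40 ± 0.19, adjusted p = 0.0454) and rose at 4 against 0 dpa (1.44 ± 0.18, adjusted p = 0.0338). For dlx3b, whose mouse counterpart acts in epidermis, hair and teeth, the level was 158 and 294 CPM at 0 dpa, 121 and 156 CPM at 1 dpa and 369.6 and 414 CPM at 4 dpa in KO fins. Against this, WT fins had 211 and 306 CPM at 0 dpa, 112 and 178 CPM at 1 dpa and 306 and 261 CPM at 4 dpa. Its groups overlapped in part, and it passed no test over time in unsorted fins.

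The msx genes encode homeodomain repressors that respond to BMP signals, and they include the member with the largest gain, msx1a. The level of msx1b was 28.9 and 28.9 CPM at 0 dpa, 18.0 and 15.8 CPM at 1 dpa and 209 and 169 CPM at 4 dpa in KO fins. In WT fins it was 33.9 and 38.2 CPM at 0 dpa, 20.7 and 18.4 CPM at 1 dpa and 170.2 and 165 CPM at 4 dpa. All 4 libraries at 4 dpa were higher than every library of the earlier times (WT, 4 against 0 dpa: log2 fold change 2.22 ± 0.18, adjusted p = 0.000171), while the drop at 1 dpa did not pass the test of a 2-fold change (-0.88 ± 0.17). The level of msx3 was 28.5 and 27.6 CPM at 0 dpa, 13.1 and 11.4 CPM at 1 dpa and 89.0 and 89.8 CPM at 4 dpa in KO fins. The level in WT fins was 36.8 and 33.5 CPM at 0 dpa, 10.7 and 10.6 CPM at 1 dpa and 134 and 147 CPM at 4 dpa. In WT msx3 fell at 1 dpa (log2 fold change -1.73 ± 0.16, adjusted p = 0.00107) and rose at 4 against 0 dpa (1.998 ± 0.16, adjusted p = 0.000228) with no overlap between times. The level of msx1a, which was near the detection limit before 4 dpa, was 0.394 and 0.364 CPM at 0 dpa, 0.123 and 0.0523 CPM at 1 dpa and 13.0 and 14.8 CPM at 4 dpa in KO fins. WT fins had 0.684 and 0.597 CPM at 0 dpa, 0.195 and 0.288 CPM at 1 dpa and 14.9 and 8.55 CPM at 4 dpa. It had the largest log2 fold change among the members at 4 against 0 dpa in WT (4.16 ± 0.32, adjusted p = 4.04e-05), from counts of 296 and 219 at 4 dpa against 23 and 14 at 0 dpa. The level of msx2a was 4.49 and 3.87 CPM at 0 dpa, 1.104 and 1.15 CPM at 1 dpa and 12.9 and 15.9 CPM at 4 dpa in KO fins. Against this, WT fins had 7.02 and 4.43 CPM at 0 dpa, 1.17 and 0.741 CPM at 1 dpa and 23.1 and 22.2 CPM at 4 dpa. In WT it fell at 1 dpa (-2.56 ± 0.28, adjusted p = 0.000528) and rose at 4 against 0 dpa (1.97 ± 0.24, adjusted p = 0.00361).

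The LIM homeodomain gene lhx2b did not stand lower at 1 dpa in WT fins. Its level was 2.76 and 3.96 CPM at 0 dpa, 4.54 and 4.03 CPM at 1 dpa and 29.8 and 23.3 CPM at 4 dpa in KO fins. In WT fins it was 4.61 and 3.45 CPM at 0 dpa, 5.86 and 5.80 CPM at 1 dpa and 17.6 and 18.6 CPM at 4 dpa. The log2 fold change in WT was 0.52 ± 0.22, adjusted p = 1 at 1 against 0 dpa and 2.16 ± 0.22, adjusted p = 0.000755 at 4 against 0 dpa, and only the second passed. The paired-related homeobox gene prrx1b, a marker of limb bud mesenchyme in mouse, ran a similar course, and its level was 13.6 and 17.6 CPM at 0 dpa, 15.95 and 13.0 CPM at 1 dpa and 82.0 and 77.4 CPM at 4 dpa in KO fins. The level in WT fins was 16.5 and 16.5 CPM at 0 dpa, 16.7 and 17.9 CPM at 1 dpa and 73.4 and 72.6 CPM at 4 dpa. Its 0 and 1 dpa libraries lay close together (0.07 ± 0.17 in WT), and its 4 dpa libraries stood far over both (4 against 0 dpa: 2.15 ± 0.18, adjusted p = 0.00022).

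Of the twist genes, whose mouse member Twist1 holds back osteoblast differentiation, twist3 had the clearest course. Its level was 17.2 and 26.8 CPM at 0 dpa, 11.8 and 9.32 CPM at 1 dpa and 157 and 152 CPM at 4 dpa in KO fins. WT fins had 25.1 and 27.7 CPM at 0 dpa, 8.79 and 10.7 CPM at 1 dpa and 84.1 and 88.6 CPM at 4 dpa. In WT it rose at 4 against 0 dpa (log2 fold change 1.71 ± 0.22, adjusted p = 0.0114), and the 1 dpa difference fell just short of the threshold (-1.44 ± 0.22, adjusted p = 0.0598). The level of twist1b was 5.20 and 11.8 CPM at 0 dpa, 5.46 and 4.71 CPM at 1 dpa and 35.9 and 39.9 CPM at 4 dpa in KO fins. Against this, WT fins had 10.7 and 12.2 CPM at 0 dpa, 8.27 and 9.38 CPM at 1 dpa and 26.7 and 20.9 CPM at 4 dpa. The 4 dpa libraries of both genotypes lay over the others, but in WT the gain did not pass at 4 against 0 dpa (1.05 ± 0.29, adjusted p = 0.641) or at 4 against 1 dpa (1.43 ± 0.29, adjusted p = 0.193). The level of twist1a was 19.2 and 78.2 CPM at 0 dpa, 9.26 and 17.5 CPM at 1 dpa and 98.1 and 122 CPM at 4 dpa in KO fins. In WT fins it was 67.1 and 85.9 CPM at 0 dpa, 39.5 and 68.8 CPM at 1 dpa and 128 and 97.8 CPM at 4 dpa. Its 2 libraries of KO fins at 0 dpa lay far apart, and it passed no test over time in WT fins. For twistnb the level was 9.62 and 7.93 CPM at 0 dpa, 11.9 and 9.53 CPM at 1 dpa and 8.14 and 10.3 CPM at 4 dpa in KO fins. The level in WT fins was 9.16 and 6.99 CPM at 0 dpa, 11.2 and 10.2 CPM at 1 dpa and 8.13 and 7.26 CPM at 4 dpa. This is a narrow range, and it passed no test over time in unsorted fins.

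Several of the WT calls rested on single libraries. Without WT 0 dpa replicate 2, the 1 against 0 dpa calls of dlx2a, dlx2b and dlx5a were lost (adjusted p = 0.123, 0.271 and 0.0628), and without WT 1 dpa replicate 1 those of dlx2a and dlx2b (0.052 and 0.252). Without WT 1 dpa replicate 2, those of dlx2a and dlx2b were lost (0.0542 and 0.0525). The calls of dlx1a, dlx6a, msx2a and msx3 held when each of the 4 libraries was left out in turn. At 4 against 0 dpa, dlx2b was lost without WT 0 dpa replicate 1 or either 4 dpa library (adjusted p = 0.226, 0.0907 and 0.0619) and twist3 without WT 0 dpa replicate 1 (0.0757). At 4 against 1 dpa, lhx2b was lost without either 1 dpa library (0.101 and 0.102) or WT 4 dpa replicate 2 (0.0746). Over all alternatives the adjusted p of lhx2b ran from 0.000169 to 0.209 there. That of dlx2b ran from 0.000145 to 0.604 at 1 against 0 dpa and from 0.000125 to 0.361 at 4 against 0 dpa.

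The course over time in KO fins came from libraries not shared with WT. At 1 against 0 dpa, 4 genes fell (dlx1a -2.05 ± 0.40, dlx2b -1.53 ± 0.19, dlx6a -2.09 ± 0.24 and msx2a -1.87 ± 0.31; 5.24% of all genes fell), and none rose in edgeR or DESeq2, with 0 genes at an unadjusted p under 0.05 in that direction. At 4 against 0 dpa, 10 genes rose, against 6.93% of all genes, with the largest log2 fold changes for msx1a (5.19 ± 0.37, adjusted p = 1.18e-05), lhx2b (2.95 ± 0.23, adjusted p = 4.27e-05) and twist3 (2.81 ± 0.23, adjusted p = 6.94e-05). The other 7 were msx1b (2.71 ± 0.18), prrx1b (2.35 ± 0.18), twist1b (2.13 ± 0.30), msx2a (1.79 ± 0.25), dlx5a (1.78 ± 0.21), msx3 (1.67 ± 0.16) and dlx2a (1.55 ± 0.19). The median over the 15 family members was -1.16 at 1 against 0 dpa and 1.78 at 4 against 0 dpa, and all 15 were positive in the second. As in WT, the choice of most members by their change over time in sorted cells bears on the gains at 4 dpa. Without KO 0 dpa replicate 1, 9 of the 10 gains were called, the loss being dlx2a (adjusted p = 0.056). The calls of dlx2a and msx2a were also lost in DESeq2 (adjusted p = 0.0525 and 0.0816) and without KO 4 dpa replicate 2 (0.0504 and 0.0626). At 1 against 0 dpa without KO 0 dpa replicate 1, msx2a was lost (log2 fold change -1.80) and twist1a was gained (-2.57). The calls at 1 dpa depended on the other libraries too: leaving out either KO 1 dpa library left 1 of the 4, dlx6a, and leaving out KO 0 dpa replicate 2 left dlx6a and msx2a.

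**Figure D2:**
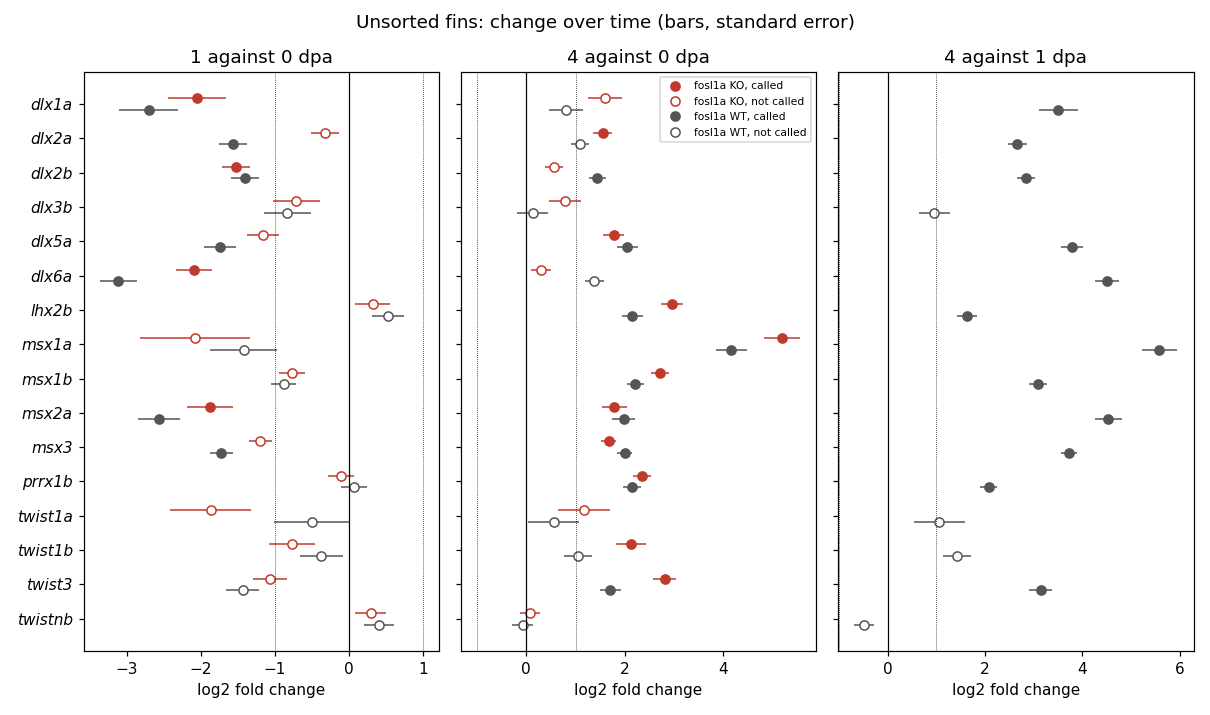
Log2 fold changes of the 16 genes over time in unsorted fins (horizontal axis), with standard errors as bars; filled points passed the test of a 2-fold change and dotted lines mark that size. Most genes lie left of 0 at 1 against 0 dpa and right of it at 4 against 0 and 4 against 1 dpa, with msx1a farthest right (4.16 in WT and 5.19 in KO at 4 against 0 dpa).

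Members of the same families that the study's lists do not name were looked up by symbol, and 12 further genes matched. In unsorted fins 6 of them passed the filter (dlx4a, dlx4b, lhx8b, lhx9, msx2b and twist2), while lhx1a, lhx1b, lhx2a, lhx3, lhx4 and lhx5 had at most 7 counts in any of these libraries. All 6 rose at 4 against 1 dpa in WT (5.84% of all genes rose), from 1.66 for dlx4a to 4.12 for lhx9 on the log2 scale. The call of dlx4b was close to the threshold (adjusted p = 0.0489). The level of lhx9, a relative of lhx2b with a like role in mouse limb buds, was 3.31 and 6.24 CPM at 0 dpa, 1.66 and 0.785 CPM at 1 dpa and 10.1 and 9.07 CPM at 4 dpa in KO fins. WT fins had 6.13 and 6.78 CPM at 0 dpa, 0.684 and 0.617 CPM at 1 dpa and 11.04 and 11.9 CPM at 4 dpa. Both genotypes had their lowest lhx9 libraries at 1 dpa, unlike lhx2b, and lhx9 fell in WT at 1 against 0 dpa (log2 fold change -3.29 ± 0.36, adjusted p = 0.000268). It was the only 1 of the 6 that fell there, beside 8.95% of all genes. At 1 against 0 dpa dlx4a had a positive log2 fold change in WT (0.35 ± 0.25) and KO (0.89 ± 0.25) and did not pass. The level of msx2b was 21.0 and 18.4 CPM at 0 dpa, 7.67 and 5.34 CPM at 1 dpa and 73.0 and 80.1 CPM at 4 dpa in KO fins. Against this, WT fins had 16.7 and 17.1 CPM at 0 dpa, 9.54 and 9.22 CPM at 1 dpa and 64.8 and 66.3 CPM at 4 dpa. At 4 against 0 dpa dlx4a (2.01 ± 0.25, adjusted p = 0.00361) and msx2b (1.95 ± 0.18, adjusted p = 0.000806) rose in WT, and the same pair rose in KO (1.82 ± 0.25 and 1.96 ± 0.18). Of all genes, 6.69% rose in WT and 6.93% in KO. In KO at 1 against 0 dpa lhx9, msx2b and twist2 fell (-2.02 ± 0.36, -1.60 ± 0.19 and -1.65 ± 0.28), beside 5.24% of all genes.

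Other genes of appendage patterning were counted for comparison, from lists of limb and fin bud transcription factors, of LIM and Twist partners, and of signals of buds and blastemas. Beside them, 6.32% of all genes rose and 8.95% fell at 1 against 0 dpa in WT, and 6.69% rose and 4.78% fell at 4 against 0 dpa. Of 31 tested limb and fin bud transcription factors outside these families, 1 rose and 6 fell at 1 against 0 dpa in WT, and 5 rose and 1 fell at 4 against 0 dpa, with a median of -0.55 and 0.17. The extremes were alx4a, an aristaless-like homeobox gene that fell at 1 dpa (-2.38 ± 0.32), and sall4, a zinc finger gene that rose at 4 dpa (2.61 ± 0.34). Of 12 partners, 1 fell and none rose at 1 dpa (id4, an inhibitor of basic helix-loop-helix factors, -2.15 ± 0.27), and 2 rose and none fell at 4 against 0 dpa (ldb2a, a LIM-binding cofactor, 1.79 ± 0.22, and lmo3, a LIM-only protein, 1.74 ± 0.33). Of 17 signals and pathway genes, 3 rose and 1 fell at 1 dpa, and 6 rose and 1 fell at 4 against 0 dpa, among them fgf20a, a ligand needed for blastema formation, which rose at 1 dpa (4.44 ± 0.28).

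Across the 12 libraries of unsorted fins, the gene whose log2 levels were most like those of dlx5a was another member, msx3 (Pearson r = 0.992), followed by ecrg4a (0.991). For lhx2b they were nrp2b (0.992), ckbb (0.991) and mmp11b (0.988). Over the 8 libraries of sorted cells the closest to dlx5a were serpinh1b (r = 0.9997), OTTDARG00000030857 (0.997) and plod1a (0.997), and the closest to lhx2b were CHD4 (0.997), PPP6R2 (0.997) and os9 (0.997). These values describe libraries that share their groups and so their time points.

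In sorted cells most family genes stood higher at 4 than at 0 dpa in both populations, which is what chose most of them. Of the 16 genes, 10 passed the test of a 2-fold change upward in sp7+ cells (14.4% of all genes) and 12 in sp7- cells (8.85% of all genes). Nothing is read from these counts. The level of dlx5a was 23.0 and 18.7 CPM in sp7+ cells and 21.3 and 20.7 CPM in sp7- cells at 4 dpa, against 4.44 and 6.30 CPM in sp7+ cells and 4.31 and 4.56 CPM in sp7- cells at 0 dpa. Its levels at 4 dpa hardly differed between the populations. The level of lhx2b was 12.9 and 14.5 CPM in sp7+ cells and 16.4 and 15.9 CPM in sp7- cells at 4 dpa, against 1.24 and 1.51 CPM in sp7+ cells and 0.566 and 1.11 CPM in sp7- cells at 0 dpa, with every 4 dpa library far over every 0 dpa library. For msx1b the level was 105 and 122 CPM in sp7+ cells and 125 and 108 CPM in sp7- cells at 4 dpa, against 21.4 and 36.5 CPM in sp7+ cells and 43.0 and 41.0 CPM in sp7- cells at 0 dpa, and for msx3 it was 30.5 and 28.8 CPM in sp7+ cells and 47.0 and 34.4 CPM in sp7- cells at 4 dpa, against 2.04 and 4.50 CPM in sp7+ cells and 3.65 and 4.44 CPM in sp7- cells at 0 dpa. Both genes stood higher at 4 dpa in both populations. The level of twist3 was 63.9 and 77.2 CPM in sp7+ cells and 63.3 and 53.8 CPM in sp7- cells at 4 dpa, against 12.6 and 16.98 CPM in sp7+ cells and 12.7 and 11.1 CPM in sp7- cells at 0 dpa, and that of twist1b was 16.8 and 23.7 CPM in sp7+ cells and 15.4 and 13.8 CPM in sp7- cells at 4 dpa, against 6.26 and 7.49 CPM in sp7+ cells and 3.24 and 1.86 CPM in sp7- cells at 0 dpa. For twist1a it was 71.9 and 92.8 CPM in sp7+ cells and 164 and 116 CPM in sp7- cells at 4 dpa, against 30.8 and 49.8 CPM in sp7+ cells and 37.4 and 28.5 CPM in sp7- cells at 0 dpa, and for prrx1b 13.6 and 10.3 CPM in sp7+ cells and 40.1 and 28.1 CPM in sp7- cells at 4 dpa, against 1.64 and 6.42 CPM in sp7+ cells and 2.67 and 2.20 CPM in sp7- cells at 0 dpa. All 4 genes stood higher at 4 dpa, and for twist1a and prrx1b the sp7- libraries at 4 dpa were the highest. The 2 sp7+ libraries at 0 dpa differed for prrx1b, and its log2 fold change over time in sp7+ cells ran from 0.90 to 2.87 over all alternatives.

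Other members were close to the detection limit in sorted cells at 0 dpa. In unsorted WT fins at 0 dpa the mean was 5.73 CPM for msx2a, 4.12 CPM for dlx6a and 0.640 CPM for msx1a. The reason for the lower msx2a and dlx6a levels in sorted cells was not tested. For msx2a the counts were 147 and 55 in sp7+ cells and 26 and 28 in sp7- cells at 4 dpa, against 1 and 2 in sp7+ and 2 and 1 in sp7- cells at 0 dpa. The fold is left out for this gene, since at most 2 counts stood behind each 0 dpa value. The level of dlx6a was 1.18 and 0.365 CPM in sp7+ cells and 1.86 and 1.28 CPM in sp7- cells at 4 dpa, against 0 and 0.199 CPM in sp7+ cells and 0.0944 and 0.121 CPM in sp7- cells at 0 dpa, and that of msx1a was 0.963 and 1.22 CPM in sp7+ cells and 1.41 and 1.095 CPM in sp7- cells at 4 dpa, against 0.311 and 0.359 CPM in sp7+ cells and 0.283 and 0.169 CPM in sp7- cells at 0 dpa. All 3 genes were detected in every 4 dpa library. The level of dlx2b was 10.01 and 7.93 CPM in sp7+ cells and 7.004 and 8.23 CPM in sp7- cells at 4 dpa. At 0 dpa it was 3.37 and 6.78 CPM in sp7+ cells and 4.97 and 3.55 CPM in sp7- cells. The times did not overlap in either population.

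The gene dlx3b ran the other way in both populations, and twistnb did so in sp7- cells only. The level of dlx3b was 103 and 151 CPM in sp7+ cells and 131 and 148 CPM in sp7- cells at 4 dpa, against 482 and 439.8 CPM in sp7+ cells and 182 and 169.8 CPM in sp7- cells at 0 dpa, so the sp7+ libraries at 0 dpa were the highest of the 8 and all others lay between 102.9 and 182.2 CPM. The summed level of 10 epidermal markers in sp7+ cells was 22500 to 25600 CPM at 4 dpa against 86400 to 101000 CPM at 0 dpa. In sp7- cells, where dlx3b was lower at 0 dpa and moved less, that sum was 40100 to 50200 CPM at 4 dpa against 118000 to 128000 CPM at 0 dpa. Single markers of the 10 went either way: at 0 dpa 3 passed as higher and 3 as lower in sp7+ than in sp7- cells. In sp7+ cells krt4 had 35992 and 29420 CPM at 0 dpa and 5326 and 6117 CPM at 4 dpa. In sp7- cells krt4 had 1148.5 and 1297 CPM at 0 dpa and 1279 and 2011 CPM at 4 dpa. By contrast, krt5 had 18615 and 18341 CPM in sp7+ and 66837 and 69782 CPM in sp7- cells at 0 dpa. The part of epidermal RNA in the dlx3b level was not tested. The level of twistnb was 7.61 and 8.49 CPM in sp7+ cells and 9.69 and 8.49 CPM in sp7- cells at 4 dpa, against 6.35 and 6.18 CPM in sp7+ cells and 32.6 and 26.6 CPM in sp7- cells at 0 dpa, with the sp7- libraries at 0 dpa the highest.

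The values of sp7+ and sp7- cells at one time show which members stood apart between the 2 sorted populations. Levels in sorted cells did not match unsorted fins for every list of markers. At 0 dpa 6 nerve and glia markers summed to 79.9 to 80.1 CPM in WT fins. They summed to 4.1 to 4.35 CPM in sp7+ and 1.35 to 1.48 CPM in sp7- cells. Leukocyte markers summed to 105 to 113 CPM in WT fins, 16.0 to 38.9 CPM in sp7+ and 103 to 150 CPM in sp7- cells. The reason was not tested. The sorted libraries chose most members, so nothing is read from the counts. At 0 dpa, 2 of 16 genes passed the test of a 2-fold change, beside 18.0% of all genes, and both were lower in sp7+ cells. They were dlx1a (0.888 and 0.996 CPM in sp7+ and 3.37 and 4.30 CPM in sp7- cells, log2 difference -2.02 ± 0.31) and twistnb (-2.24 ± 0.23), which was listed for its fall over time in sp7- cells. At 4 dpa, 2 passed it, beside 9.02% of all genes. Here dlx1a was lower in sp7+ cells (3.66 and 4.77 CPM in sp7+ and 24.2 and 18.0 CPM in sp7- cells, log2 difference -2.33 ± 0.26). The other was msx2a, listed for its gain in sp7+ cells, which was higher there (2.32 and 1.34 CPM in sp7+ and 0.404 and 0.511 CPM in sp7- cells, 2.01 ± 0.41). For dlx1a the libraries of the populations did not overlap at either time. Its call at 0 dpa was lost in DESeq2. The msx2a call at 4 dpa was lost in DESeq2 and with the replicate block by number. It was also lost without either sp7- library at 4 dpa (log2 difference 1.90 and 2.18) and without sp7+ replicate 1 at 4 dpa (1.60). The log2 difference of msx2a ran from 1.60 to 2.41 over all alternatives.

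At 4 dpa dlx2a, the neighbour of dlx1a, had 21.0 and 19.0 CPM in sp7+ and 40.7 and 36.1 CPM in sp7- cells (log2 difference -0.94 ± 0.21), and whether this differs from the value of dlx1a was not tested. The log2 difference of dlx3b at 0 dpa was 1.39 ± 0.23, that of twist1b at 0 dpa was 1.44, and that of prrx1b at 4 dpa was -1.51 ± 0.42. These were larger than 2-fold in size but did not pass the test of a 2-fold change in the fit given here. With the replicate block within each time point dlx3b at 0 dpa passed it (1.39), as it did with DESeq2's size factors (1.51). With only the groups compared in the fit, prrx1b at 4 dpa passed it (-1.51). Osteoblast markers summed to 35000 to 53400 CPM in sp7+ and 2210 to 3180 CPM in sp7- cells at 4 dpa. At 0 dpa they summed to 2060 to 6350 CPM in sp7+ and 67.3 to 89.6 CPM in sp7- cells. In sp7+ cells col10a1a alone had 33135 and 51242 CPM at 4 dpa and 1769.7 and 5612.6 CPM at 0 dpa.

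**Figure D3:**
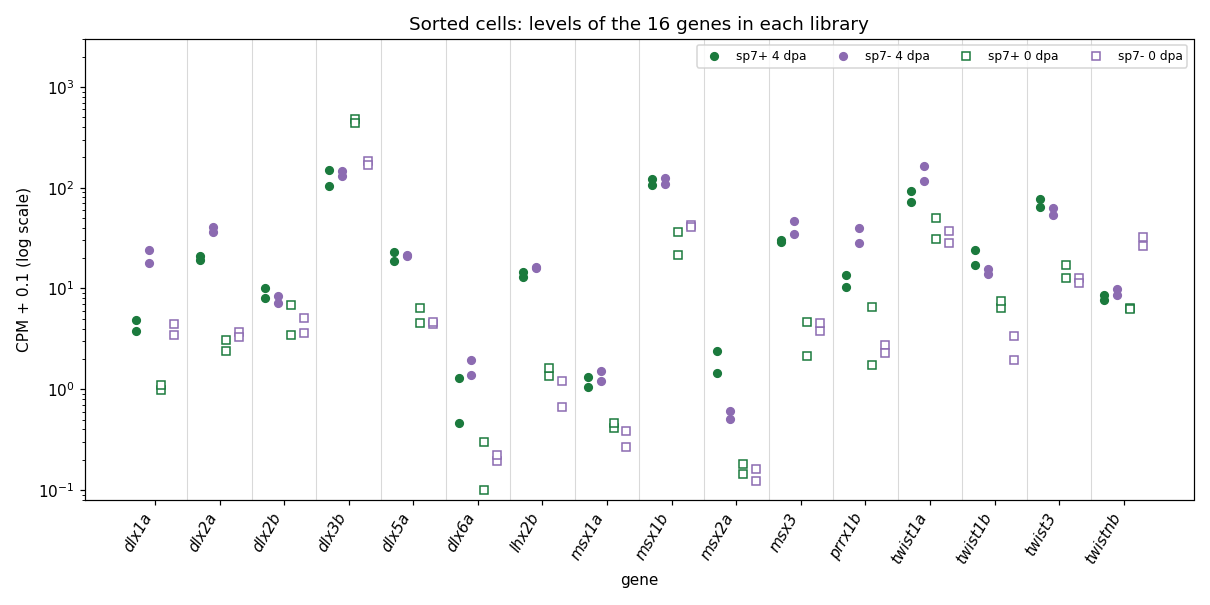
Levels of the 16 genes in each library of sorted cells, as CPM plus 0.1 on a log scale. Within a gene the groups run sp7+ at 4 dpa, sp7- at 4 dpa, sp7+ at 0 dpa and sp7- at 0 dpa (circles, 4 dpa; squares, 0 dpa; green, sp7+; purple, sp7-); most genes stand higher at 4 dpa in both populations, dlx3b is highest in sp7+ cells at 0 dpa and twistnb in sp7- cells at 0 dpa.

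The comparison of KO with WT fins asked whether the levels of these genes differed in fosl1a mutants. The paper reports that early fin regrowth was delayed in these mutants. After amputation, genotype and stage of regeneration therefore cannot be told apart, in levels or in changes over time. At 0 dpa none of the 16 passed edgeR's test, against 0.352% of all genes, 2 had an unadjusted p under 0.05 (dlx2a and dlx2b), and DESeq2 called none. That count was the same without KO 0 dpa replicate 1, while without KO 0 dpa replicate 2 twist1a and twist1b were called lower in KO (adjusted p = 0.021 and 0.0228; ranges over all alternatives 0.021 to 1 and 0.0228 to 1). At 1 dpa none passed, against 1.23% of all genes, 4 had an unadjusted p under 0.05 (dlx2a, dlx6a, twist1a and twist1b), and DESeq2 called 1, twist1a. The twist1a levels at 1 dpa, 9.26 and 17.5 CPM in KO and 39.5 and 68.8 CPM in WT fins, did not overlap, and the log2 difference was -2.01 ± 0.54, adjusted p = 0.109 (adjusted p = 0.00352 in DESeq2; range over all alternatives 0.00352 to 0.544).

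At 4 dpa 3 of the 16 genes passed, against 29.4% of all genes (12.7% higher and 16.8% lower in KO). With only the groups compared in the fit, 8 of the 16 passed, and 8101 genes were called in all. Lower in KO were dlx6a (5.82 and 5.47 CPM in KO and 9.89 and 11.6 CPM in WT fins, log2 difference -0.93 ± 0.19, adjusted p = 0.0069) and msx3 (89.0 and 89.8 CPM in KO and 134 and 147 CPM in WT fins, -0.65 ± 0.15, adjusted p = 0.0104). Higher in KO was twist3 (157 and 152 CPM in KO and 84.1 and 88.6 CPM in WT fins, 0.84 ± 0.22, adjusted p = 0.0159). For each of the 3 genes both KO libraries lay on the same side of both WT libraries. The same held for members that were not called, among them dlx1a, dlx2b, dlx5a and lhx2b. The share of all genes separated in this way was not counted, and nothing is read from it. Over the 15 family members, 8 were higher and 7 lower in KO, with a median of 0.13.

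The calls at 4 dpa depended on single libraries. Without KO 4 dpa replicate 1 the number of genes called among all tested fell to 126, against 5933 with it, and none of the 3 members passed (adjusted p = 0.0603 for dlx6a, 0.0816 for msx3 and 0.0935 for twist3). Without WT 4 dpa replicate 2 none passed either, with 1243 genes called in all (adjusted p = 0.0775, 0.101 and 0.0785 in the same order). Without WT 4 dpa replicate 1, 2399 genes were called in all, and dlx6a and msx3 among the members. The log2 differences themselves ranged from -1.004 to -0.78 for dlx6a and from 0.82 to 0.91 for twist3 over all alternatives.

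**Figure D4:**
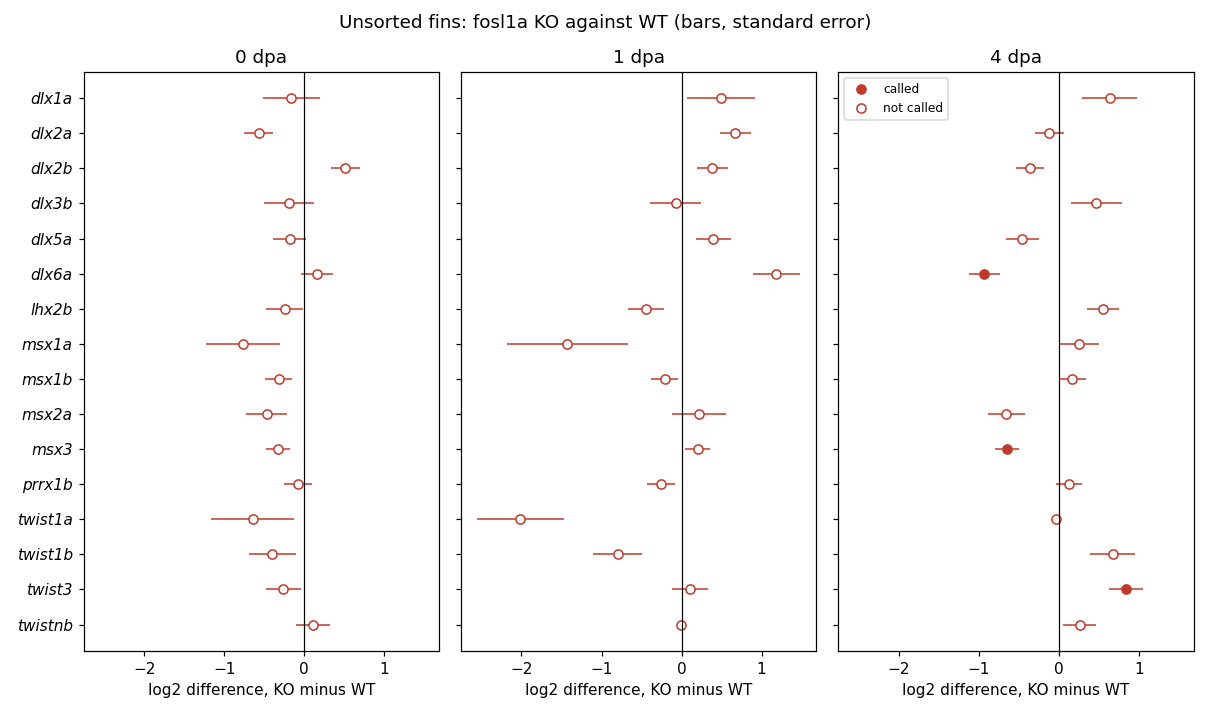
Log2 difference between KO and WT fins (horizontal axis, positive where KO is higher) for the 16 genes at 0, 1 and 4 dpa, with standard errors as bars; filled points passed the test of no difference. Filled points occur at 4 dpa alone, for dlx6a and msx3 on the left and twist3 on the right, and twist1a lies at -2.01 at 1 dpa without passing.

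The change over time was also compared between the genotypes directly. For 1 against 0 dpa no member differed in edgeR, against 0.506% of all genes, 3 had an unadjusted p under 0.05 (dlx2a, dlx6a and msx3), and DESeq2 called 1, dlx2a (adjusted p = 0.00727; range over all alternatives 0.00727 to 0.364). In edgeR dlx2a differed by 1.25 ± 0.26, adjusted p = 0.0779: its KO libraries at 1 dpa lay close to their 0 dpa level, and its WT libraries lay well under theirs. Without KO 0 dpa replicate 1, twist1a alone differed (adjusted p = 0.05). For 4 against 0 dpa 3 members differed, against 18.5% of all genes: the gain was smaller in KO for dlx2b (-0.88 ± 0.25, adjusted p = 0.0358) and dlx6a (-1.09 ± 0.28, adjusted p = 0.0264) and larger in KO for twist3 (1.099 ± 0.31, adjusted p = 0.0336). All 3 calls were lost in each of the runs without WT 0 dpa replicate 2, without either WT 4 dpa library and without either KO 4 dpa library, where adjusted p values reached 0.112 at most. Without KO 0 dpa replicate 1, dlx2b alone was called, and without KO 0 dpa replicate 2, dlx6a and twist3 were called together with 4 other members.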

How the data were processed

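RNA-seq counts of 20 zebrafish libraries were used. The authors deposited counts of read pairs per gene: pairs from an unstranded polyA kit were mapped with STAR 2.5.2a to GRCz10, and uniquely mapped pairs were assigned by featureCounts 1.5.0, ignoring strand, to exons of genes in Ensembl 85. A pair over several genes was counted for each, so overlapping genes and near-identical copies are uncertain. Each of the 2 tables was analysed alone in R 4.3.3 with edgeR 4.0.16 (TMM, its filter on low counts, a quasi-likelihood model fitted once per experiment), which left 20157 genes for unsorted fins and 18641 for sorted cells. Comparisons of times and of cell populations were tested against a 2-fold change, and those of genotypes and of change between genotypes against no difference, with Benjamini-Hochberg adjustment over all genes at a false discovery rate of 0.05. SE was computed as the size of the log2 fold change divided by the square root of F, and left out where the unadjusted p is above 0.9. CPM are counts over the TMM-scaled library size, and genes most like another were ranked by Pearson's r of log2(CPM + 0.1). The fit was tested on simulated data.

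Symbols came from the study's lists and from a reference table of gene names. Every member was described, with full values for dlx5a, lhx2b, each member called in a comparison that did not choose it, and others by family. Other genes were taken from the named lists as counts, with the called extremes. The members, lists, tests and alternatives were chosen with earlier results of these data known. Alternatives were DESeq2 1.42.0, which the authors ran in an older version, its size factors, no filter on low counts, fits of only the groups compared, a 2-fold filter after the test, replicate blocks, and leaving out each library. Same-numbered libraries of sp7+ and sp7- cells, which the methods describe as sorted from the fins of 1 replicate, deviated together (r across genes 0.394 at 0 dpa and 0.192 at 4 dpa), so a replicate block by time point was used beside the fit without it. The comparison of the populations was planned as a test, but is given without p-values because the same libraries chose the members. With 2 libraries in a group, intervals from counting were not needed and outlying libraries were not tested. The search by family name found 1 more gene, which is not reported here. Levels of different genes were not compared, and sequences and coordinates were not used here. Figures were drawn with matplotlib 3.10.9.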

Additional observations from a re-analysis of the deposited data

Results flagged for a closer look

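Of the 16 genes, 3 changed differently between genotypes from 0 to 4 dpa in edgeR's test of the difference in change (KO change minus WT change, log2): dlx2b by -0.88, dlx6a by -1.09 and twist3 by 1.1. The adjusted p over all alternatives ran from 0.0258 to 0.108 for dlx2b, from 0.0175 to 0.109 for dlx6a and from 0.00202 to 0.112 for twist3. In this comparison 18.5% of all genes differed, and the number of all genes called was 80 without KO 4 dpa replicate 1.

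In sorted cells twistnb moved in opposite directions from 0 to 4 dpa: both sp7+ libraries at 4 dpa lay over both at 0 dpa (log2 0.36), and both sp7- libraries at 4 dpa lay under both at 0 dpa (log2 -1.7). This difference between the populations was not tested.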

How the results depend on the processing

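No member called with all libraries changed sign under any alternative run. Some that were not called did: without KO 0 dpa replicate 1 the KO against WT difference at 0 dpa was 0.04 for twist1a and 0.06 for twist1b, and the difference in change of twist1a at 4 dpa was -0.06. Without KO 0 dpa replicate 2 these were -2.00, -1.14 and 1.97, and all 3 were called. Cases were counted where a member was called in a comparison with all libraries or in at least 1 alternative. Leaving out 1 library left most of these calls the same, with more lost than gained. The other alternatives gave the same call in 583 cases, a lost call in 29 and a new one in 44. The number of the 16 genes called moved as follows. With DESeq2 it was 1 against 2 for sp7+ against sp7- cells at both 0 and 4 dpa, 1 against 4 for KO 1 against 0 dpa, and 1 against 0 for KO against WT at 1 dpa and for the difference in change at 1 dpa. With a 2-fold filter after the test it was 4 against 2 between populations at 0 dpa and 9 against 4 for KO 1 against 0 dpa. Fitting only the groups compared gave 0 against 4 for KO 1 against 0 dpa, 2 against 0 and 8 against 3 for KO against WT at 1 and 4 dpa, and 0 against 3 for the difference in change at 4 dpa. Without a filter on low counts 1 gene against 0 was called for KO against WT at 1 dpa and 5 against 3 at 4 dpa. Leaving out each library gave 9 to 12 genes in sp7+ and 11 to 12 in sp7- cells over time, 2 to 3 and 1 to 2 between populations at 0 and 4 dpa, 4 to 7, 7 to 9 and 11 to 12 for WT at 1 against 0, 4 against 0 and 4 against 1 dpa, 1 to 4 and 8 to 12 for KO at 1 and 4 against 0 dpa, 0 to 2, 0 to 0 and 0 to 3 for KO against WT at 0, 1 and 4 dpa, and 0 to 1 and 0 to 6 for the differences in change at 1 and 4 dpa. The cause of these shifts was not tested.

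With the replicate block by number over all times, 1 gene against 2 was called between populations at 4 dpa (without msx2a), 10 against 11 in sp7+ cells and 11 against 10 for KO 4 against 0 dpa. The replicate block within each time point gave 3 against 2 at 0 dpa, with dlx3b added. It gave 2 against 2 at 4 dpa, and changed no other call. In unsorted fins the labels give no pairing by number. Correlations of same-numbered deviations ran from 0.106 to 0.446 among the groups at 0 and 1 dpa, and from -0.259 to 0.11 in pairs with a 4 dpa group.

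The number of all genes called moved by more than 1.5 times in these cases. DESeq2 called 2914 against 5114 in sp7+ cells over time (40.9% of them raised, against 52.4%), 1795 against 3189 in sp7- cells, 2104 against 3357 and 1051 against 1681 between populations at 0 and 4 dpa, 1893 against 3077 and 1259 against 2313 for WT at 1 and 4 against 0 dpa, 1242 against 2020 and 1794 against 3022 for KO, 209 against 71 and 651 against 248 for KO against WT at 0 and 1 dpa, and 290 against 102 for the difference in change at 1 dpa. The 2-fold filter after the test called 8628, 6489, 6226, 3432, 6337, 5961, 4980 and 6303 in the same order of the first 8 comparisons, and 4123 against 1809 for WT 4 against 1 dpa. No filter on low counts gave 207, 570 and 261 for KO against WT at 0 and 1 dpa and the difference in change at 1 dpa, and fitting only the groups compared gave 0, 533 and 44 there, 1018 for KO 1 against 0 dpa and 441 against 3720 for the difference in change at 4 dpa. Leaving out 1 library gave 3364 to 5618 in sp7+ and 1799 to 2406 in sp7- cells over time, 1036 to 1334 between populations at 4 dpa, 2045 to 2680, 1411 to 1986 and 1165 to 1458 for WT at 1 against 0, 4 against 0 and 4 against 1 dpa, 1313 to 2384 and 1963 to 4190 for KO at 1 and 4 against 0 dpa, 29 to 1500, 7 to 28 and 126 to 4109 for KO against WT at 0, 1 and 4 dpa, and 47 to 392 and 79 to 7499 for the differences in change at 1 and 4 dpa. Depth limits msx2a and dlx6a in sorted cells and msx1a in both experiments, where they had few counts at 0 dpa.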

Other observations

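In the regenerate at 4 dpa, genes of the limb and fin bud list outside these families were compared between genotypes: 7 of 31 were higher and 1 lower in KO than in WT fins, with the extremes meis1a (log2 difference 1.09 ± 0.30) and snai2 (-0.49 ± 0.16), and 6 of 17 bud and blastema signals were higher and 0 lower, among them ptch1, a Hedgehog receptor (1.31 ± 0.30). Of all genes tested, 12.7% were higher and 16.8% lower, and the number called was 126 without KO 4 dpa replicate 1, against 5933 with it. At 1 dpa 2 of the 17 signals differed, beside 1.23% of all genes. These were the ligands fgf20a (-1.66 ± 0.23) and bmp2a (-1.57 ± 0.23), both lower in KO than in WT fins. Of 12 LIM and Twist partners, 2 were higher and 4 lower in KO at 4 dpa, with the extremes tcf3a (0.71 ± 0.19) and id2b (-1.55 ± 0.22).

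The summed level of 6 nerve and glia markers in WT fins was 79.9 to 80.1 CPM at 0 dpa, 13.0 to 14.6 CPM at 1 dpa and 7.77 to 9.84 CPM at 4 dpa. That of 4 leukocyte markers was 105 to 113, 71.1 to 79.5 and 79.0 to 80.8 CPM.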
